A study of Mus musculus with 4 samples.

Results

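*Yipf1*, *Igfbp4* and *Noct* are 3 protein-coding genes among the 47069 gene IDs counted in this study. They were picked by symbol because their scaled levels had been higher in tumour-derived exosomes than in primary tumour and because their annotated transcripts hold stretches that resemble small RNAs. Each symbol matched 1 gene ID, and all 3 passed the filter on low counts that 1442 genes passed, 954 of them protein-coding. The exosome-to-tumour differences of these genes were used to choose them, so their levels are given as a description, without a test.

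The exosome group held 2 libraries of RNA from exosomes that pieces of Lewis lung carcinoma tumour released into serum-free medium over 12 h. Those exosomes were collected with a precipitation reagent after passage through a 0.2 µm filter. The tumour group held 2 libraries of RNA from the primary tumour. Both came from C57BL/6 mice inoculated under the skin with Lewis lung carcinoma, an established mouse carcinoma line, and tumours were cut 3 weeks later. The tumours hold host cells beside the inoculated line, and the labels do not say whether replicates come from separate animals, so the p-values here reflect the spread between libraries, which may be technical.

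The exosome libraries held 305751 and 217201 counts, against 14543691 and 10849811 in the tumour libraries. Protein-coding genes held 8640 and 7160 of the exosome counts, against 225866 and 171152 of the tumour counts. The carcinoma and epithelial marker genes *Epcam*, *Krt19* and *Cdh1* had no count in any library. The others of that list, *Krt8* and *Krt18*, together had 1 and 1 counts in exosomes, against 13 and 4 in tumour. Fibroblast markers summed to 78.5 and 96.7 CPM (counts scaled to the library total, as in FPKM but without length) in exosomes, against 9.42 and 7.65 CPM in tumour, and erythroid markers to 268 and 483 CPM in exosomes, against 114 and 81.2 CPM in tumour. On the TMM scale described below, fibroblast markers summed to 33.2 and 33.5 CPM in exosomes, against at most 24.3 CPM in either tumour library. On that scale the erythroid order turned, with 113 and 168 CPM in exosomes, against 295 and 223 CPM in tumour. The other marker lists ranged from 3.27 to 50.6 CPM of the library total in exosomes, against 0.0922 to 4.95 CPM in tumour, and from 1.38 to 20.8 CPM on the TMM scale in exosomes, against 0.253 to 12.8 CPM in tumour. The part of these cell types in the results below was not tested, and in bulk RNA fewer cells of a type and less RNA per cell cannot be told apart. RNA adaptors were ligated without molecular identifiers, so the intervals below cover counting error only.

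*Yipf1* encodes a membrane protein of the Golgi apparatus from the YIPF family, whose members act in traffic between the endoplasmic reticulum and the Golgi. *Igfbp4* encodes a secreted protein that binds insulin-like growth factors and limits their access to the receptor, until the protease PAPP-A cleaves it. *Noct* encodes nocturnin, a rhythmically expressed enzyme related to the deadenylases of the CCR4 family, for which the phosphate of NADP(H) is a known substrate. Exosomes are small vesicles of endosomal origin, and libraries made by ligating adaptors to RNA ends and selecting by size can hold fragments of messenger RNA together with small RNA.

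The stretches that resemble small RNAs, part of how the genes were chosen, are shown first. GENCODE M21 transcripts of small RNA genes (6112 sequences) were compared by blastn with the 11 *Yipf1*, 6 *Igfbp4* and 4 *Noct* transcripts of the same annotation. For *Igfbp4* and *Noct*, the small RNA with the best match over at least 80% of its own length is shown, 5' to 3', and capitals mark the part that matched. Small RNA genes of a single chromosome were left out of this choice, so best means best among the rest.
Gm25190 (best over at least 80% of its length for Igfbp4): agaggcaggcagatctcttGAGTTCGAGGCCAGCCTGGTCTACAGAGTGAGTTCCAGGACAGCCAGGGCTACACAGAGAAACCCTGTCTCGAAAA
Gm22355 (best over at least 80% of its length for Noct): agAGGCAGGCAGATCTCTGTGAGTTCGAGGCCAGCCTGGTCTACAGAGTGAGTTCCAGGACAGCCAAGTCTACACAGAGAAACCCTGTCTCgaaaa

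The main *Yipf1* stretch (chromosome 4, 107319650 to 107319809, plus strand, GRCm38) was 160 bases of Yipf1-208, a transcript with no reading frame, and matched 122 small RNA genes. Gm25190 (chromosome 10, 116531646 to 116531740) was 92.1% identical to part of *Igfbp4* over its bases 20 to 95, the last base being 95, on the opposite strand. Gm22355 (chromosome 2, 167644364 to 167644459) was 89.9% identical to part of *Noct* over 92.7% of its length, also on the opposite strand. The 3 genes also shared sequence with each other through these stretches. Yipf1-208 and Igfbp4-201 had an identical run of 24 bases on the same strand. Between Yipf1-208 and Noct-202 the longest identical run was 31 bases, on opposite strands, and between Igfbp4-201 and Noct-202 it was 23 bases.

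In *Yipf1*, the stretches lay in 3 of 11 transcripts, Yipf1-205, Yipf1-206 and Yipf1-208, none of which has a reading frame. Yipf1-201, the transcript of 1321 bases with the longest reading frame, held none. In *Igfbp4*, 1 stretch of 293 bases formed the end of the 3' UTR of Igfbp4-201 (chromosome 11, 99054100 to 99054392), and a second, of 33 bases, lay in Igfbp4-206, which has no reading frame. In *Noct*, all 7 stretches lay before the reading frame of a single long transcript, Noct-202 (9797 bases), and the other 3 *Noct* transcripts held none. No stretch touched a reading frame in any transcript of the 3 genes. Other annotated genes within the loci had almost no counts. Gm12870, a pseudogene within *Yipf1*, had 0 and 1 in exosomes and none in tumour, and Gm12869, antisense to *Yipf1*, had none. Gm38357, within *Noct*, had 0 and 1 in exosomes and 1 and 1 in tumour.

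**Figure D1:**
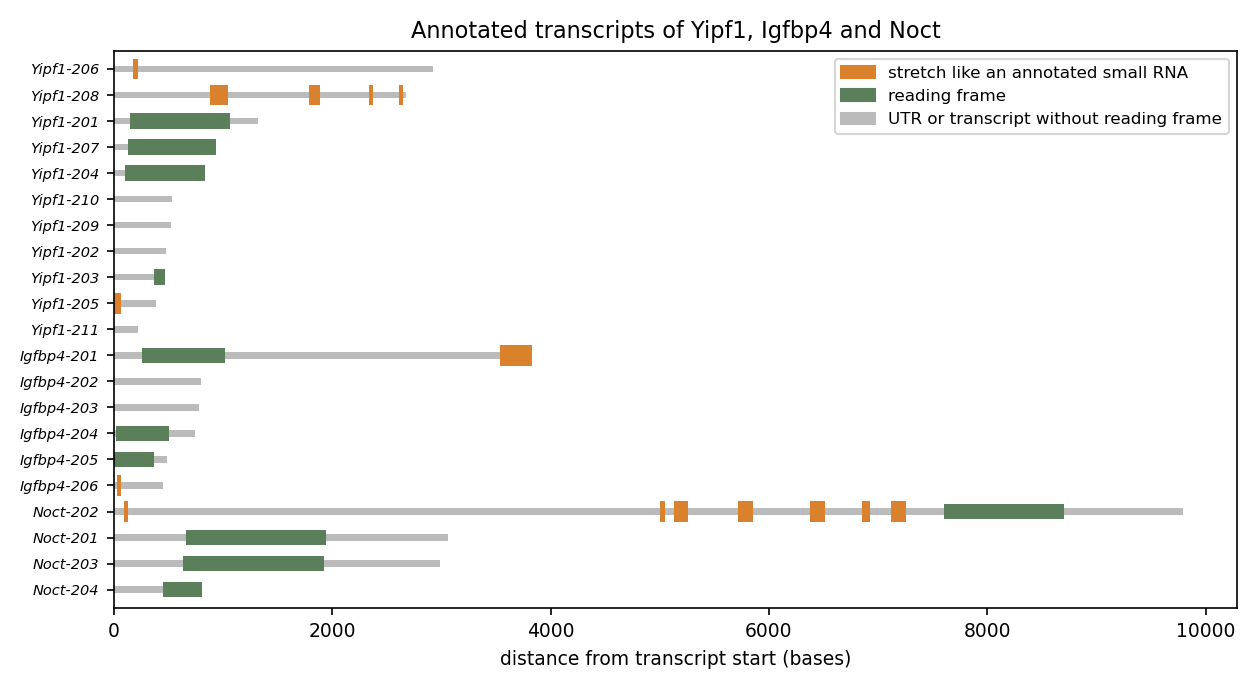
Annotated transcripts of the 3 genes, drawn from the transcript start (x axis, bases), with stretches like annotated small RNAs in orange, the reading frame in green and the rest in grey. The stretches sit in 3 Yipf1 transcripts without a reading frame, at the end of Igfbp4-201 and in Igfbp4-206, and before the reading frame of Noct-202.

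Each gene matched many small RNA genes rather than 1: 140 for *Yipf1*, 143 for *Igfbp4* and 134 for *Noct*, most of them annotated as microRNA (112, 117 and 103). Mouse genomes hold very many copies of short interspersed repeats, of which the B1 family is related to 7SL RNA, the RNA of the signal recognition particle. Whether the stretches are such repeats was not tested against a repeat annotation. Of the matches to *Yipf1* and to *Noct*, 3 were 7SL genes, Rn7s1, Rn7s2 and Gm26461, over a short part only. For Rn7s1 (300 bases) the match was 87.8% identical over 49 bases in Yipf1-208 and 83.3% identical over 60 bases in Noct-202. *Igfbp4* matched no 7SL gene.

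The matching small RNA genes had few counts of their own, 7SL apart. Neither Gm25190 nor Gm22355 had a count in any library. The 3 7SL genes together had 3510 and 2593 counts in exosomes, against 1472 and 997 in tumour. The other 137 small RNA genes that match *Yipf1* summed to 48 and 28 exosome counts, against 200 and 137 tumour counts. That exosome sum equals 3.10% of the exosome counts of *Yipf1* itself. For *Igfbp4*, the 143 matching genes summed to 27 and 14 in exosomes, against 127 and 95 in tumour, which in exosomes exceeds the 15 and 10 counts of *Igfbp4*. For *Noct*, the 131 genes other than 7SL summed to 44 and 25 in exosomes, against 92 and 59 in tumour. With at least 80% identity over at least 80% of the small RNA required, a rule chosen after seeing the data, 84 genes matched *Yipf1* (21 and 9 exosome counts, 5 and 2 tumour counts), 48 matched *Noct* (6 and 8 exosome counts, 3 and 2 tumour counts) and 9 matched *Igfbp4* (no counts).

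The abundant noncoding RNAs of the exosome libraries were searched for exact runs shared with the 3 genes. There were 162 noncoding genes with at least 50 exosome counts in all, and these held 96.0% of exosome counts. None of them had an identical run of at least 16 bases, on either strand, with any annotated transcript of *Yipf1* or *Noct*, and 1, the mitochondrial ribosomal RNA mt-Rnr2, had one with *Igfbp4*. Of the 954 tested protein-coding genes, 339 (35.5%) had such a run with at least 1 of the 162. Among mature microRNAs in RefSeq (GRCm38.p6), mmu-miR-3470b matched Igfbp4-201 over all of its 21 bases on the same strand, and mmu-miR-3473b over all of its 20 bases on the opposite strand. Partial runs of at least 16 bases were found for miR-3473a and miR-3473e in *Igfbp4* and *Noct*, and for miR-3473b and miR-706 in *Noct*. *Yipf1* had none, and the 5 loci, Mir3470b, Mir3473a, Mir3473b, Mir3473e and Mir706, had no count in any library.

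These searches cover the M21 gene models, which are shorter than those behind the deposited values. The length implied by count and FPKM was 8490 bases for *Yipf1*, against 6783 exonic bases in M21. It was 6109 against 4416 bases for *Igfbp4* and 16113 against 10658 for *Noct*. Over 119 coding genes with at least 100 counts the median ratio of the 2 lengths was 1.18, and 48.7% of them had a ratio above 1.2. How the lengths behind the deposited FPKM were defined is not known, so whether those gene models hold more sequence is not established. Sequence outside M21 was not analysed here.

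A stretch like a small RNA was common among the tested coding genes. By the same search, 562 of 954 (58.9%) held at least 1, and 42.7% held one under the 80% rule. The share grew with exonic length, with 27.8% of genes in the shortest of 5 length classes and 86.4% in the longest. Of the 562 genes with a stretch, 31 (5.52%) were called higher in exosomes and 41 (7.30%) lower. Of the 392 without one, 20 (5.10%) were called higher and 59 (15.1%) lower. The 31 include *Yipf1*, *Igfbp4* and *Noct*, which were chosen for both a stretch and a higher exosome level. The 5.52% is therefore partly built in by that choice, and its excess over the 5.10% carries no weight. The median exonic length was 7474 bases with a stretch and 3777 without. Whether the shares of calls differ between genes with and without a stretch was not tested. By number of matching small RNA genes, *Igfbp4* stood at percentile 93.2 of the tested coding genes, *Yipf1* at 91.9 and *Noct* at 89.0.

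**Figure D2:**
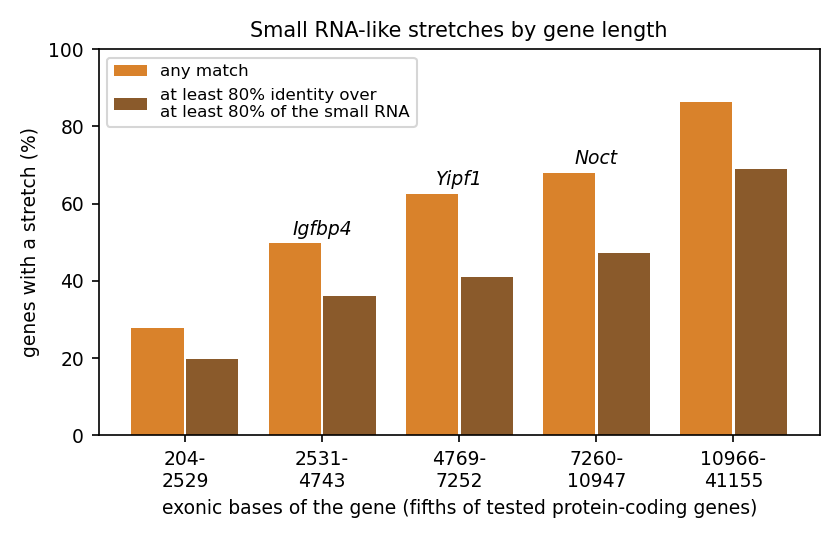
Share of tested protein-coding genes (y axis, %) that hold a stretch like an annotated small RNA, by 5 classes of exonic bases of equal size (x axis), for any match and for the 80% rule, with the class of each of the 3 genes named. The share for any match is 27.8% in the shortest and 86.4% in the longest class, and Igfbp4, Yipf1 and Noct fall in classes 2, 3 and 4.

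*Yipf1* (ENSMUSG00000057375, chromosome 4, 107314363 to 107359823) was the protein-coding gene with the most counts in both exosome libraries. It had 884 and 1568 counts in exosomes, against 399 and 285 in tumour. These counts came to 2891 and 7219 CPM in exosomes, against 27.4 and 26.3 CPM in tumour. With library totals 69.7% of tested coding genes were called higher in exosomes by edgeR. The share of genes whose groups do not overlap was not computed on that scale. On the TMM scale 23.2% of tested coding genes, *Yipf1* included, had both exosome libraries above both tumour libraries. *Yipf1* took 10.2% (exact Clopper-Pearson 95% interval 9.60% to 10.9%) and 21.9% (20.9% to 22.9%) of protein-coding counts in exosomes. In tumour it took 0.177% and 0.167% and ranked 13 in both libraries. The next coding gene in exosomes, Gm10800, had 133 and 89 counts, and *Actb*, the cytoskeletal actin gene, had 60 and 42. Per length, the deposited FPKM of *Yipf1* was 341 and 850 in exosomes, against 3.23 and 3.09 in tumour.

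The exosome libraries disagreed on the level of *Yipf1* by more than counting error, since the 95% Poisson intervals ran from 2704 to 3088 CPM and from 6866 to 7585 CPM. The mean was 5055 ± 3060.3 CPM in exosomes and 26.9 ± 0.825 CPM in tumour (SD, n = 2 each), and the ratio of replicate 2 to replicate 1 was 2.50 in exosomes and 0.957 in tumour. Among the 8 other coding genes with at least 20 counts in both exosome libraries this ratio ran from 0.911 to 2.24, with a median of 1.2. The highest of these were the haemoglobin genes *Hbb-bs* (2.24) and *Hbb-bt* (1.65). Of 102 genes of any class with at least 100 counts in both exosome libraries, 1 had a higher ratio than *Yipf1*. That gene was the microRNA locus Mir10b, with 636 and 1147 counts and a ratio of 2.54. Mir10b has no identical run of 16 bases with *Yipf1*.

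*Igfbp4* (ENSMUSG00000017493, chromosome 11, 99041244 to 99054392) had 15 and 10 counts in exosomes, against 36 and 28 in tumour. These came to 49.1 and 46.0 CPM in exosomes, against 2.48 and 2.58 CPM in tumour. On the TMM scale *Igfbp4* was among the 23.2% of tested coding genes with both exosome libraries above both tumour libraries. On so few counts the 95% Poisson intervals were wide, 27.5 to 80.9 and 22.1 to 84.7 CPM in exosomes. On this scale of library totals they remained above those of the tumour libraries, which ended at 3.43 and 3.73 CPM. Intervals were not computed on the TMM scale, on which the groups lay closer, so their separation there is not known. The rank of *Igfbp4* among coding genes by count was 28 and 33 in exosomes, against 210 and 186 in tumour. The deposited FPKM was 7.78 ± 0.349 in exosomes and 0.414 ± 0.0122 in tumour (SD, n = 2 each).

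*Noct* (ENSMUSG00000023087, chromosome 3, 51224447 to 51251644) had 18 and 12 counts in exosomes, against 46 and 40 in tumour. These came to 58.9 and 55.2 CPM in exosomes, against 3.16 and 3.69 CPM in tumour. On this scale 69.7% of tested coding genes were called higher in exosomes by edgeR. On the TMM scale *Noct* was among the 23.2% of them with both exosome libraries above both tumour libraries. The 95% Poisson intervals were 34.9 to 93.0 and 28.5 to 96.5 CPM in exosomes, against upper ends of 4.22 and 5.02 CPM in tumour. They too describe a gene chosen for its difference and carry no weight as a test. These intervals are on the scale of library totals and were not computed on the TMM scale, on which the groups lay closer. The rank by count was 23 and 25 in exosomes, against 147 and 114 in tumour. Per length *Noct* stood lower, with a deposited FPKM of 3.54 ± 0.159 in exosomes and 0.213 ± 0.0230 in tumour (SD, n = 2 each), below *Igfbp4* in all 4 libraries. The order by FPKM was *Yipf1*, *Igfbp4* and *Noct* in every library.

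**Figure D3:**
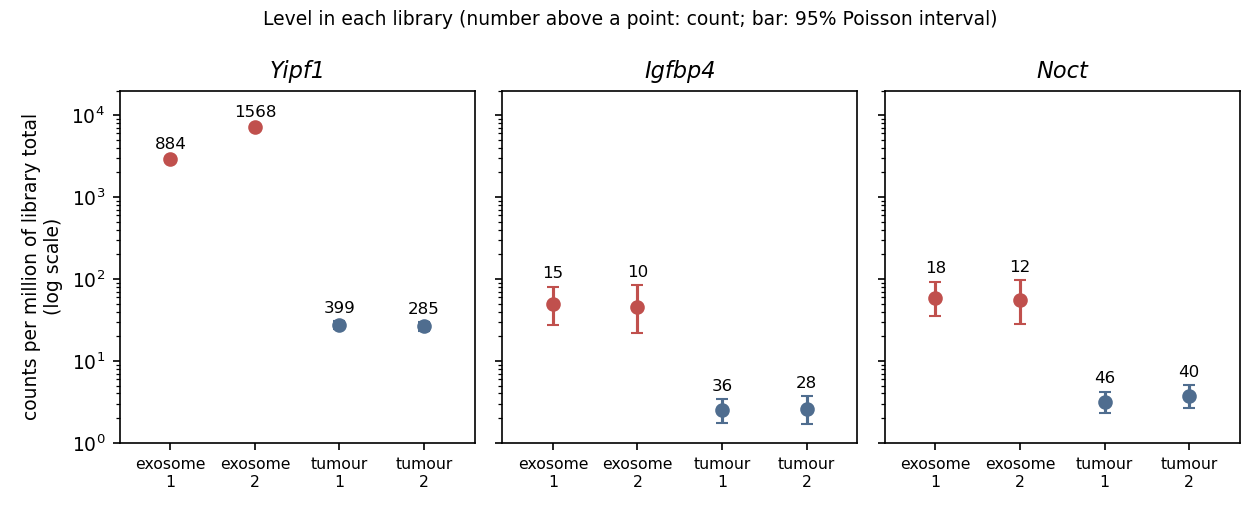
CPM of the library total (y axis, log scale) in each library (x axis) for the 3 genes, with exosome libraries in red and tumour libraries in blue, 95% Poisson intervals as bars and the count above each point. Yipf1 stands at 2891 and 7219 in exosomes and near 27 in tumour, and Igfbp4 and Noct at 46.0 to 58.9 in exosomes and under 4 in tumour.

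How large the difference is depends on the scale. As CPM of the library total, *Yipf1* was 188-fold, *Igfbp4* 18.8-fold and *Noct* 16.7-fold higher in exosomes, on group means. Noncoding genes hold most counts, and TMM, the scaling used for the fit, sets the typical tested gene near no difference. On that scale *Igfbp4* had 20.8 and 16.0 CPM in exosomes, against 6.40 and 7.08 CPM in tumour. *Noct* had 24.9 and 19.2 CPM in exosomes, against 8.18 and 10.1 CPM in tumour. *Yipf1* had 1223 and 2503 CPM in exosomes, against 70.9 and 72.0 CPM in tumour. The fitted log2 differences, exosome minus tumour, were 4.70 for *Yipf1*, 1.46 for *Igfbp4* and 1.29 for *Noct*. The median over the 1442 tested genes was 0.018.

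When CPM of library totals replaced TMM, the log2 differences were 7.57, 4.25 and 4.09 for *Yipf1*, *Igfbp4* and *Noct*, and the median of all tested genes was 2.78. Relative to that median they were 4.79, 1.47 and 1.31, close to the 4.68, 1.44 and 1.27 of the TMM scale. With the tumour libraries thinned at random to exosome depth they were 4.36, 0.10 and 0.36 above the median of the 312 genes then tested. Shares of coding counts need no fit. *Snrpb* and *Rpl7a*, which dominate the coding counts of the tumour libraries, were left out, a choice made after seeing the data. As a share of the other coding counts, *Yipf1* was 16.1% ± 8.27 in exosomes and 0.636% ± 0.00605 in tumour. *Igfbp4* was 0.157% ± 0.0241 in exosomes and 0.0600% ± 0.00418 in tumour, and *Noct* was 0.188% ± 0.0289 in exosomes and 0.0814% ± 0.0120 in tumour (SD, n = 2 each). These shares differ 25.3-fold, 2.62-fold and 2.32-fold.

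Among the 954 tested coding genes, 51 (5.35%) were called higher in exosomes by edgeR (quasi-likelihood test, adjusted p under 0.05), and the 3 genes are among them by choice. Over all 1442 tested genes 16.0% were called higher and 22.1% lower, and 10.5% of coding genes were called lower. With library totals 64.1% of all tested genes and 69.7% of coding genes were called higher. By size of difference *Yipf1* was number 3, *Igfbp4* number 48 and *Noct* number 50 of the 51, and 73 and 101 tested coding genes, called or not, had a larger difference than *Igfbp4* and *Noct*. At the edge of the call, *Tgfbr2* (1 and 7 counts in exosomes, 6 and 4 in tumour, log2 difference 2.46) was the last coding gene inside and *Ube2d3* (6 and 6 in exosomes, 21 and 12 in tumour, 1.37) the first outside. Both exosome libraries lay above both tumour libraries on the TMM scale for 221 of 954 coding genes (23.2%), these 3 included. All 3 genes were above the filter's level in both tumour libraries, so none was admitted through exosome counts alone.

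**Figure D4:**
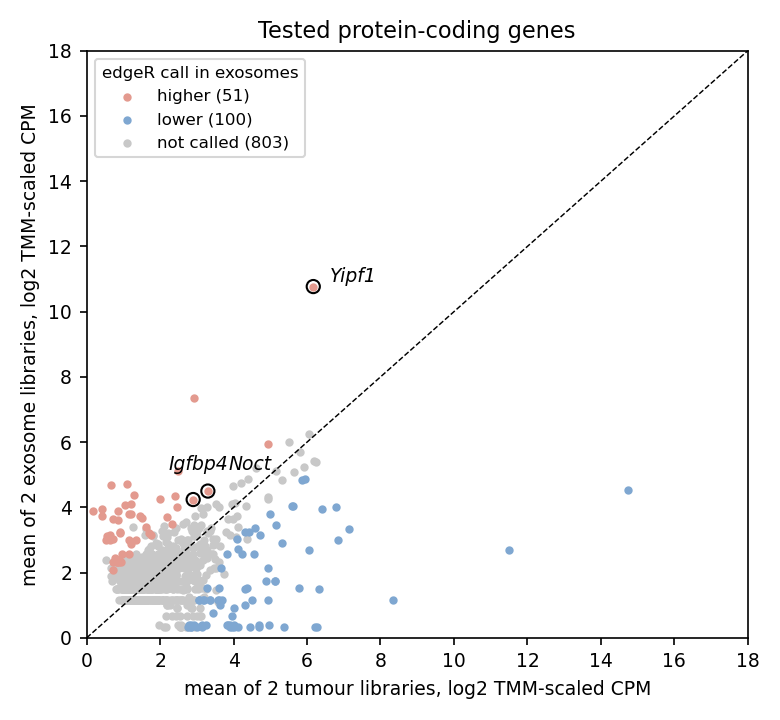
Mean log2 TMM-scaled CPM of the 2 exosome libraries (y axis) against that of the 2 tumour libraries (x axis) for 954 tested protein-coding genes, coloured by call, with the 3 genes circled and the line of equal levels dashed. Yipf1 stands far above the line at a level no other coding gene reaches in exosomes, and Igfbp4 and Noct lie closer to it.

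Few genes around these 3 in their pathways had enough counts to test, since 1 count is 3.27 or 4.6 CPM in the exosome libraries, against 0.0688 or 0.0922 CPM in the tumour libraries. None of the 8 other listed YIPF family genes (*Yipf2* to *Yipf7*, *Yif1a*, *Yif1b*) had an exosome count, and they summed to 13 and 4 counts in tumour, so *Yipf1* exceeded its family in both groups. Each other YIPF gene had at most 3 counts in a tumour library. Of 17 genes of Golgi structure and transport, 11 had an exosome count and 3 were tested, with 0 higher and 0 lower at adjusted p (edgeR). Of these, *Golgb1*, a Golgi tether, stood at 0.40, *Tmed2*, a cargo receptor, at 0.49, and *Arf1*, a small GTPase of coat assembly, at −0.48 (edgeR adjusted p = 0.801, 0.757 and 0.728). All 3 passed the filter through their exosome level alone, on 2 and 1 counts in the exosome libraries.

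In the insulin-like growth factor system, *Igfbp3*, which encodes the main carrier of these factors in plasma, was called higher in exosomes. It had 7 and 4 counts in exosomes, against 2 and 5 in tumour, and 22.9 and 18.4 CPM in exosomes, against 0.138 and 0.461 CPM in tumour. Its log2 difference was 3.39 (edgeR adjusted p = 0.00378, range 2.48e-10 to 0.0560 over the other settings that tested it, with the call lost when no filter was used). It passed the filter through its exosome level alone, which favours a positive difference, so the p carries no weight. With at least 10 counts required in at least 2 libraries it was not tested. *Igf2r*, the receptor that clears IGF2, had 2 and 1 counts in exosomes, against 28 and 21 in tumour, and a log2 difference of −1.19 (edgeR adjusted p = 0.224). These were the only tested genes of the 18 listed beside *Igfbp4*, with 1 higher and 0 lower. The shares over all tested coding genes were 5.35% higher and 10.5% lower. *Igf1*, *Igfbp1*, *Igfbp2*, *Igfals*, *Pappa*, *Pappa2* and *Stc2* had no count in any library. *Igfbp5*, *Igfbp6* and *Igfbp7* had none in exosomes and at most 2 in a tumour library.

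Around *Noct*, 18 genes of deadenylation and 16 of the circadian clock had been listed. Of the deadenylation genes, 9 had an exosome count and 2 were tested, with 0 higher and 0 lower. These were *Cnot1*, the scaffold of the CCR4-NOT complex (2 and 1 counts in exosomes, 30 and 23 in tumour, log2 difference −1.30, edgeR adjusted p = 0.164), and *Pan3*, of the PAN2-PAN3 deadenylase (2 and 2 counts in exosomes, 12 and 8 in tumour, log2 difference 0.50, edgeR adjusted p = 0.711). *Pan3* passed the filter through its exosome level alone. None of the 16 clock genes reached the test, and together they had 6 and 2 counts in exosomes, against 26 and 17 in tumour. *Noct* alone thus had more counts than the listed clock genes in every library.

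Of 12 genes of exosome marker proteins, 6 were tested, with 0 higher and 1 lower. Of all tested coding genes, 5.35% were called higher and 10.5% lower. *Pdcd6ip*, *Sdcbp* and *Lamp1* passed the filter through their exosome level alone, on 1 or 2 counts in each exosome library. *Hspa8*, a chaperone found in exosomes as protein, had 7 and 5 counts in exosomes, against 129 and 74 in tumour, and a log2 difference of −1.23 (edgeR adjusted p = 0.0251). With library totals its difference was 1.56, against a median of 2.78 for all tested genes, and it was called higher (edgeR adjusted p = 0.00989). It was called higher too by limma on log2(FPKM + 1) and on log2(FPKM + 0.1) (limma adjusted p = 0.0223 and 0.0201). With at least 10 counts required in at least 2 libraries, the lower call of *Hspa8* was lost (−0.79, edgeR adjusted p = 0.131). Its call was lost without exosome replicate 2, tumour replicate 1 or tumour replicate 2 (edgeR adjusted p = 0.0577, 0.243 and 0.0940). The tetraspanin genes *Cd63* and *Cd81* had no exosome count, against 8 and 7 and 4 and 4 counts in tumour. *Cd9*, also a tetraspanin gene, had 1 and 0 in exosomes, against 7 and 7 in tumour. With so few counts in the deeper tumour libraries, a lack of exosome counts does not show that these messenger RNAs are absent from exosomes. At an unadjusted p of 0.05 no listed gene but *Igfbp3* was higher and 2 exosome marker genes were lower, and DESeq2 gave the same number of calls as edgeR in each list. Over all 89 listed genes other than these 3, 13 were tested, the median log2 difference was 0.16, and 1 was called in each direction. Over all tested coding genes the median was 0.061.

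Likeness was measured as the Euclidean distance between log2 TMM-scaled CPM profiles over the 4 libraries, each centred on its own mean, among 30 other coding genes with at least 10 counts in both exosome libraries. *Noct* was nearest to *Igfbp4* and *Igfbp4* to *Noct*, at a distance of 0.18. Both were chosen for a higher exosome level, which these profiles hold, so their closeness is partly built in. It also rests on few exosome counts, 15 and 10 for *Igfbp4* and 18 and 12 for *Noct*. *Eef2*, the translocation factor of translation, followed at 0.60 from *Igfbp4* and 0.64 from *Noct*. *Col4a1*, a basement membrane collagen gene, ranked number 3 for *Igfbp4* (0.63) and *Rplp0*, a ribosomal stalk protein gene, for *Noct* (0.72). No gene came as near to *Yipf1*, for which the closest were the unnamed loci Gm21738 (1.58), Gm10800 (1.88) and Gm10801 (2.00). These 3 loci had 10, 88 and 17 counts in tumour replicate 1, against 1, 11 and 2 in tumour replicate 2, while *Yipf1* had 399 and 285.

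**Figure D5:**
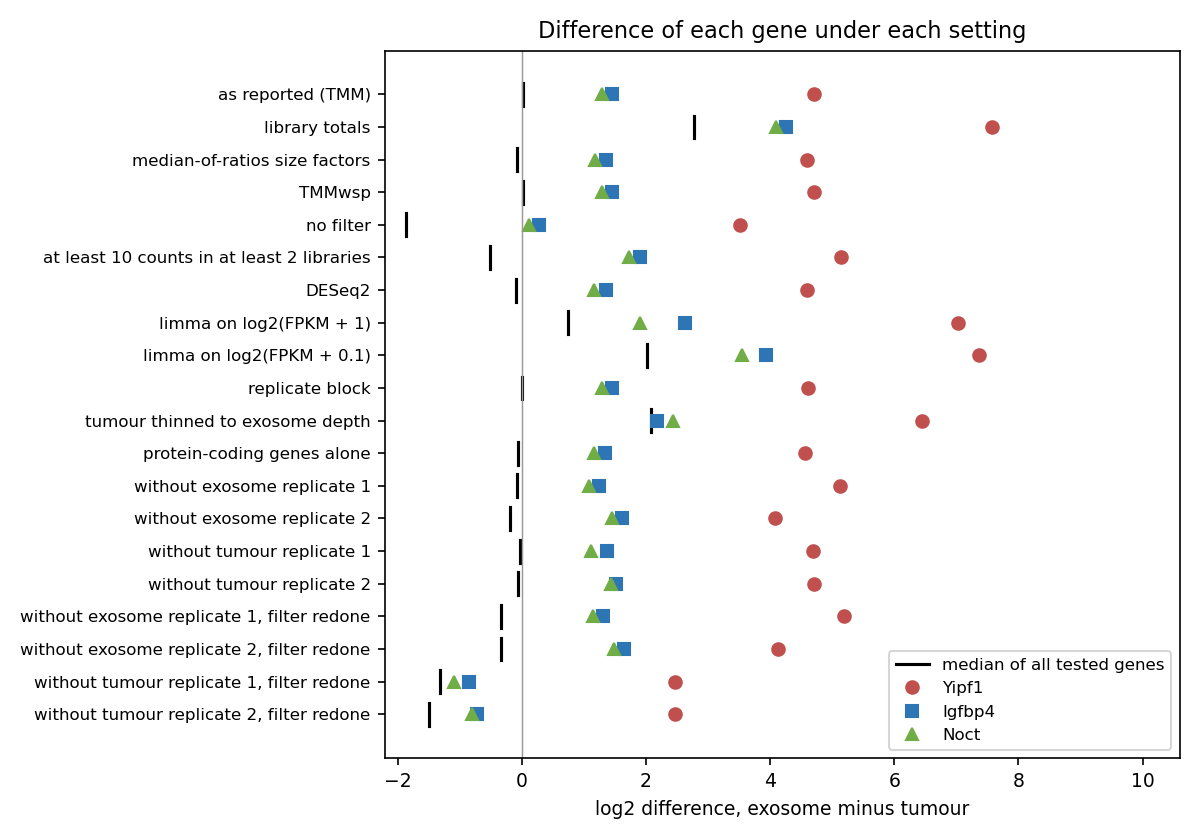
Log2 difference, exosome minus tumour (x axis), of the 3 genes under each way of scaling, filtering or testing (y axis), with the median of all tested genes as a black tick. Each gene lies above the median under every setting shown, and Igfbp4 and Noct fall below 0 where a tumour library is left out and the filter redone.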

How the data were processed

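Gene counts were analysed for 2 exosome and 2 tumour libraries, grouped by their titles. The counts deposited by the authors are unnormalized whole numbers, and the FPKM deposited by the authors are scaled to gene length and library total, per the file headers. The submitters' processing notes name TopHat2 2.0.9, Cufflinks 2.1.1, Cuffdiff and GRCm38.p4. The tool that made the counts, its annotation, the strand setting and the treatment of reads with several matches are not named in the labels or files. Symbols came from GENCODE M21 for 46574 of 47069 IDs. Totals ran from 217201 to 14543691 counts, and 1 count is 3.27 or 4.60 CPM in exosomes, against 0.0688 or 0.0922 CPM in tumour. Replicates differed beyond sampling noise (chi-square per degree of freedom 18.7 in exosomes and 16.5 in tumour).

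Counts were fitted with edgeR 4.0.16 (R 4.3.3; TMM factors 2.41 and 2.93 for exosomes, 0.388 and 0.365 for tumour; filterByExpr with minimum count 10 and minimum total 15; two-sided quasi-likelihood test; Benjamini-Hochberg over 1442 genes, threshold 0.05). The fit was tested on simulated data. Log2 CPM used a prior count of 2. Stretches were found with blastn 2.17.0 (word size 11, e-value 0.001, low-complexity masking). Sequences are those of GENCODE M21, and the small RNA nearest to *Yipf1* is not reported here. Alternatives were other scalings and filters, DESeq2 1.42.0, limma 3.58.1 on log2 FPKM, a replicate block, thinning and leaving out libraries. The 3 genes and the lists were chosen with earlier results of these data known. Beside the 3 genes, those named were the matching small RNAs, called listed genes, the most counted listed genes, the nearest profiles and the leading coding genes of exosomes. Other names were chosen after their values were seen.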

Additional observations from a re-analysis of the deposited data

How the results depend on the processing

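Depth limits *Igfbp4* and *Noct*, which rest on 10 to 18 counts in each exosome library. All 3 genes stayed above the median of all tested genes in all 19 alternatives. With library totals *Yipf1*, *Igfbp4* and *Noct* stood at 7.57, 4.25 and 4.09 (median of all tested genes 2.78), with 925 genes higher and 166 lower and 9 and 0 listed genes. With no filter they stood at 3.52, 0.28 and 0.11 (median −1.86), with 610 genes lower and 0 and 5 listed genes. With limma on log2(FPKM + 1) they stood at 7.02, 2.63 and 1.90 (830 higher, 171 lower, 12 and 0 listed), and with log2(FPKM + 0.1) at 7.37, 3.94 and 3.54 (977, 161, 12 and 0). With tumour libraries thinned to exosome depth they stood at 6.44, 2.18 and 2.44 (median 2.08), only 0.10 and 0.36 above the median for *Igfbp4* and *Noct*, with 121 genes lower and 0 and 0 listed. With at least 10 counts in at least 2 libraries *Igfbp4* and *Noct* stood at 1.90 and 1.73, and 0 listed genes were called in either direction. Protein-coding genes alone, chosen after seeing the data, gave 41 higher, 114 lower and 2 listed genes lower, and median-of-ratios size factors also gave 2 listed lower. The causes were not tested.

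Leaving out each library with the same genes gave 4.08 to 5.13 for *Yipf1*, 1.25 to 1.61 for *Igfbp4* and 1.09 to 1.45 for *Noct*, with 0 to 2 listed genes lower. With the filter redone, also chosen after seeing the data, the ranges were 2.46 to 5.19, −0.85 to 1.65 and −1.10 to 1.48, with 0 listed higher and 0 to 1 lower. *Igfbp4* and *Noct* turned to −0.85 and −1.10 without tumour replicate 1 (394 genes tested, 108 higher, 190 lower, median −1.32) and to −0.72 and −0.81 without tumour replicate 2 (397 genes, 82 higher, 197 lower, median −1.50). *Hspa8* turned to 1.56 with library totals, 0.92 with log2(FPKM + 1) and 1.46 with log2(FPKM + 0.1). The replicate block gave 4.61, 1.45 and 1.29, with 244 genes higher, 345 lower and 2 listed lower; samples shared only a number (correlation of same-numbered deviations −0.0198). With at least 80% identity over at least 80% of the small RNA, 84, 9 and 48 small RNA genes matched *Yipf1*, *Igfbp4* and *Noct*. Word size 7 gave 147, 162 and 144, and an e-value of 1e-06 gave 113, 111 and 111.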
